A study of Mus musculus with 5 samples.

Results

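STAT3 binding in mouse dendritic cells kept in diluent was read here from the authors' list of regions called in a STAT3 ChIP-seq library against an IgG library. Every row of that list was taken, which gave 3507 regions of the 60037 in the 4 lists that compare a library with IgG. The cells came from the bone marrow of female C57BL/6 mice aged 10 weeks. Culture lasted 7 days in GM-CSF plus IL-4, each at 10 ng/mL. CD11c selection then gave 95% purity, and the cells were kept for 12 hours with diluent. The 4 groups compared with the IgG library were STAT3 and H3K4me3 ChIP from diluent cells, and STAT3 and H3K4me3 ChIP from cells given SAHA, a histone deacetylase inhibitor, labelled 500 nm, for the same time. Each group had 1 library, and the only IgG library came from diluent cells. The labels do not say how many mice were pooled or whether the libraries came from separate cultures, so no replicate error exists and no test between conditions was possible. Shares below are given with 95% binomial intervals by the Clopper-Pearson method. These describe the counting alone, since the tags carry no molecular identifiers and regions are not replicates.

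STAT3 is a transcription factor that cytokine receptors activate through Janus kinases. The phosphorylated dimer enters the nucleus and binds DNA at a palindrome whose outer letters are TTC and GAA. In myeloid cells it is known as the effector of IL-10 and IL-6, for inducing its own inhibitor Socs3, and for restraining the maturation of dendritic cells. H3K4me3 is a histone mark found at the starts of active and poised genes.

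The STAT3 library held 25013431 tags after duplicate filtering and the IgG library held 18925827. Diluent H3K4me3 regions lay within 5 kb of a start for 6 of the 7 dendritic cell markers examined, among them Itgax (CD11c), Flt3 and Zbtb46, and for all 7 macrophage and monocyte markers. The same held for 2 of 4 T cell markers, Cd3d and Lck. It held for 1 of 3 granulocyte markers (Elane), 1 of 3 erythroid markers (Klf1), and no B cell, NK cell or non-haematopoietic marker. In the longer gene lists used below it held for 2 of 11 B cell, 2 of 8 NK cell and 5 of 20 non-haematopoietic genes. It held there for 5 of 15 granulocyte and mast cell, 4 of 8 erythroid and 5 of 16 T cell genes. The longer dendritic cell and macrophage lists had 13 of 18 and 16 of 20. A gene was scored when any of the 4 lists gave a start for it, and 84.5% of the scored protein-coding genes had H3K4me3 within 5 kb. Markers without a listed start were counted here as without H3K4me3, so the marker counts and that share have different denominators.

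Sequences of the microRNAs and promoters that the STAT3 regions lay near are shown first, from RefSeq (GRCm38.p6). The regions themselves are in mm9 coordinates and no mm9 sequence was used. Of the regions, 34 were assigned to a microRNA gene, 24 genes in all. Mir26b and Mir21 ranked 2 and 5 by score in the whole list, so their mature strands, and those of the next microRNA genes by score, Mirlet7c-1 and Mir582, are printed with the seed (bases 2 to 8) in capitals. The printed strands have 4 different seeds.
miR-26b-5p: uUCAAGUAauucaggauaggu
miR-21a-5p: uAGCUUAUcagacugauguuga
let-7c-5p: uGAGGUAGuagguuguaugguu
miR-582-5p: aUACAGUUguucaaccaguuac

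Of 42 named genes with a STAT3 region at the start, 5 carried the STAT3 palindrome TTCNNNGAA in a RefSeq window from 250 bases before to 50 after the start, with both strands searched. They were Alpk1, Elmo1, Clec4a2, Irf2 and Psmb8. The other 37, which include Stat3, Nfkbiz and Il6, held no match in that window. Printed here are the 250 bases upstream of the start of 3 of them, 5′ to 3′ on the strand of the gene with the palindrome in capitals, to show where it falls. In Alpk1, an alpha kinase of innate sensing, it began 114 bases upstream (chr3:127780528-127780777, minus strand). In Clec4a2, an inhibitory C-type lectin, it began 42 bases upstream (chr6:123122440-123122689, plus strand). In Psmb8, an immunoproteasome subunit, it began 97 bases upstream (chr17:34197945-34198194, plus strand). The Psmb8 STAT3 region was 870 bp long with its midpoint 650 bp upstream, so this site lay outside it. The same held for Irf2, whose site began 224 bases upstream and whose region had its midpoint 249 bp downstream. These placements take the listed start and the RefSeq start as the same.
Alpk1: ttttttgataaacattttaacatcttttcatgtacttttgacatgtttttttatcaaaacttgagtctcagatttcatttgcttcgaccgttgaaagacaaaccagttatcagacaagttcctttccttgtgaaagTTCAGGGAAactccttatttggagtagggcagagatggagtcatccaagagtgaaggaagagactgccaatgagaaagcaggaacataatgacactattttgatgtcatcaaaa
Clec4a2: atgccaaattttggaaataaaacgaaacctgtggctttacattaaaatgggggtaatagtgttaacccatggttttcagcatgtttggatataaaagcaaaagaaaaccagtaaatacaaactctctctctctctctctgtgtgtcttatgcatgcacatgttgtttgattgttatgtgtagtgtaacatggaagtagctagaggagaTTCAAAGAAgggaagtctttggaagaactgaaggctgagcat
Psmb8: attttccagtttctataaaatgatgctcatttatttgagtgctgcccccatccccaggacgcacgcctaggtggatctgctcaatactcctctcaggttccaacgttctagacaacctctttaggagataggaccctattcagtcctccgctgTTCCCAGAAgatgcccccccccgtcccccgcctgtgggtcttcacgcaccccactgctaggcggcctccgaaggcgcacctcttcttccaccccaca

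Across all genes with a region midpoint within 1 kb of the start, 37 of 425 promoter windows held TTCNNNGAA (8.71%, 6.20 to 11.8%), against 1636 of 21262 windows of all protein-coding genes (7.69%). The stricter TTCCNGGAA, every match of which is also a TTCNNNGAA match, was in 7 of the 425 windows (1.65%) and in 1.17% of all windows. The AP-1 letters TGANTCA were in 32 (7.53%, 5.21 to 10.5%) against 6.99%, and the ETS letters GGAAGT in 129 (30.4%, 26.0 to 35.0%) against 24.8%. The intervals for the palindromes and the AP-1 letters held the share of all windows, and that for the ETS letters lay above it. At regions with a score of 40 or more the ETS letters were in 45 of 166 windows (27.1%, 20.5 to 34.5%), an interval that held the share of all windows. A match is a string of letters and not a bound site, and the windows do not cover the whole of most regions. The windows of all genes were not chosen by H3K4me3, whereas 90.4% of the STAT3 regions within 1 kb of a start lay over it.

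Most STAT3 regions lay far from starts. The midpoint was beyond 10 kb of the start of the assigned gene for 2275 regions (64.9%, 63.3 to 66.5%) and beyond 100 kb for 568 (16.2%). Between 1 and 10 kb lay 814 regions (23.2%), and 418 were within 1 kb. The median distance was 20.5 kb, with quartiles of 4.78 and 61.2 kb. The assigned gene had the nearest start in any of the 4 lists for 3506 of the 3507 regions. Those starts are only the ones the lists give, this list's own among them, so a nearer unlisted start would not be seen. Midpoints inside the assigned transcript numbered 1182 (33.7%), with 1608 (45.9%) upstream of the start and 717 (20.4%) past the transcript end.

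Near starts the regions gathered just upstream. Of the 418 within 1 kb, 253 (60.5%, 55.7 to 65.2%) had the midpoint on the upstream side. The 500 bp before the start held 160 regions and the 500 bp after it held 91. From 500 to 1000 bp the counts were 93 upstream and 74 downstream. The start itself lay under 223 regions (6.36%). The histogram of positions around the start shows a single peak over the first 500 bp upstream, made mostly of regions over H3K4me3.

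**Figure D1:**
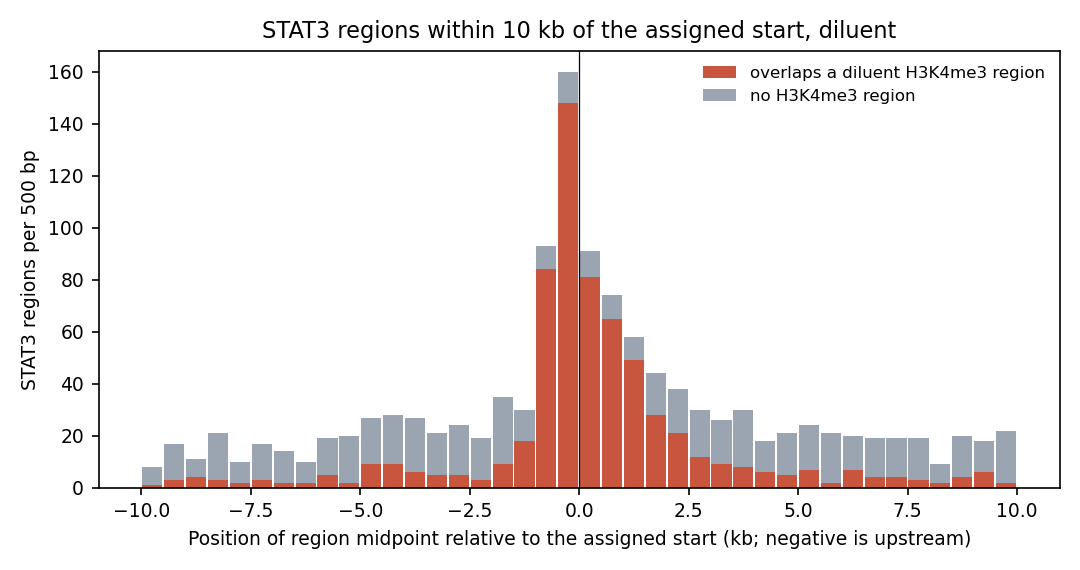
Number of STAT3 regions per 500 bp by the position of the midpoint relative to the assigned start (kb, negative upstream), for regions within 10 kb; bars are stacked by overlap with a diluent H3K4me3 region. The tallest bar, 160 regions, is the 500 bp before the start, and the one after it holds 91.

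H3K4me3 covered 1.70% of the genome span and held many of the STAT3 regions: 874 overlapped a diluent H3K4me3 region by at least 1 bp (24.9%, 23.5 to 26.4%). Both lists were called against the same IgG library. With regions called in the H3K4me3 library without any control the share was 23.5%. At starts 378 of 418 regions lay over H3K4me3 (90.4%), from 1 to 10 kb 270 of 814 (33.2%), and beyond 10 kb 226 of 2275 (9.93%). With the control-free H3K4me3 regions these shares were 90.0%, 27.3% and 9.93%. Expressed per length, there were 19.5 STAT3 regions per Mb inside H3K4me3 regions and 1.02 per Mb outside. A region that overlapped by 1 bp counted as inside, which raises the first value.

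Higher scores went with starts and with H3K4me3. The score is the authors' value for each region against IgG, ran from 30 to 147.22 with a median of 35.02, and is used here only to rank. It had a median of 37.5 within 1 kb of starts, 35.1 from 1 to 10 kb and 34.7 beyond. Among the distant regions, the 226 over H3K4me3 had a median score of 39.9 and the 2049 others 34.3. The share over control-free H3K4me3 was 16.1% in the lowest quartile of scores and 36.3% (33.1 to 39.5%) in the highest quartile. Region length rose too, from a median of 619 bp to 929 bp, and longer regions meet other regions more readily. The share within 1 kb of a start was 9.23% in the lowest quartile and 16.5% in the highest. The share inside the transcript differed little between quartiles, at 34.6%, 31.5%, 35.0% and 33.6%.

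**Figure D2:**
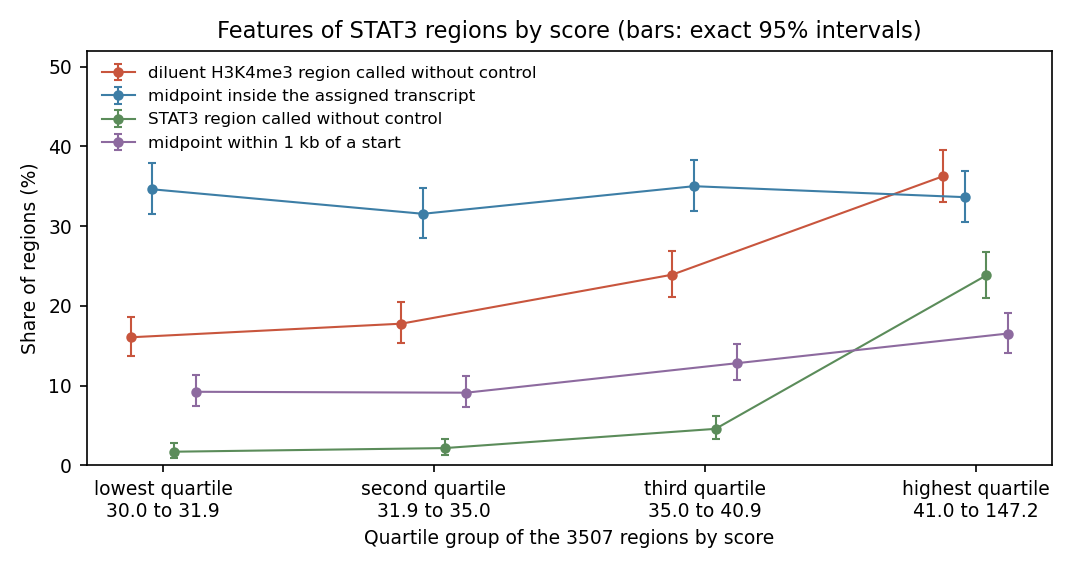
Share of STAT3 regions (%) with each of 4 features, by quartile of the score against IgG, with exact 95% intervals. The H3K4me3 and control-free STAT3 shares are highest in the top quartile, at 36.3% and 23.8%, while the share inside transcripts is 33.6% there and 34.6% in the lowest quartile.

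The 20 highest scores among regions with a named gene ran from 83.49 to 147.22. Within 1 kb of a start were 3 of them, 4 lay from 1 to 10 kb and 13 beyond. H3K4me3 lay under 14, a STAT3 region of the SAHA cells overlapped 5, and no IgG region overlapped any. The IgG table lists only called regions, so a site missing from it has no IgG value here. The STAT3 list was called with this IgG library as control, so little overlap was built into it.

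The highest score, 147.22, was at chr10:51173289-51174536, 26.6 kb upstream of Lilrb4, an inhibitory immunoglobulin-like receptor of myeloid cells. The control-free STAT3 region there held 58 tags at a fold of 6.75 over local background, and the H3K4me3 region under it held 493 tags. A second Lilrb4 region lay 234 bp downstream of the start with a score of 46.8. Lilrb4 has a near-identical neighbour, so its tags are uncertain. Mir26b followed with 130.38 at chr1:74442634-74444192, 2529 bp downstream of the hairpin. That region held 88 tags at a fold of 6.31, over an H3K4me3 region of 2743 tags, and a SAHA STAT3 region overlapped it.

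Mir21 had a score of 120.11 at chr11:86437480-86438507, 40.3 kb upstream of the hairpin, with 52 tags at a fold of 6.25. A second Mir21 region lay 15.7 kb upstream with a score of 32.89. miR-21 is among the microRNAs known to be induced by STAT3. The annotated start of a microRNA gene is its hairpin and not the start of the primary transcript, and 29 of the 34 microRNA regions lay beyond 10 kb of it. Mirlet7c-1, with a score of 60.17, had its region 3188 bp downstream, and Mir582, with 58.39, had its region 116.7 kb downstream over H3K4me3.

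Among the other high-scoring sites, Tnfaip3 (A20), an inhibitor of NF-kB, had a score of 123.33 at chr10:18797224-18798272, 62.5 kb upstream and with no H3K4me3. Nfkbiz, a nuclear IkB protein, had 98.53 at chr16:55837888-55839533, 44 bp downstream of its start. Ccrl2, a chemerin-binding receptor, had 91.17 at a site 1888 bp upstream. Gpr65, an acid-sensing receptor, had 83.6 at a site 14.7 kb downstream. Hlx, a homeobox factor, had 99.67 at chr1:186359275-186361181, 196.1 kb downstream.

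Frmd5, which encodes a FERM-domain protein, scored 128.87 at chr2:121612343-121613599, 109 bp downstream of its start, with 53 STAT3 tags. The H3K4me3 region under it held 49 tags, against 2581 at Stat3. Lamc1, a laminin chain, scored 117.27 at a site 18.6 kb upstream without H3K4me3. The rest of the 20 were Cd53, Akr1a4, Atp6v1g3, Akap13, Parp11, Stat3, Cdhr3, Pde3b, Met and Serpinb8. Unnamed transcripts were passed over when naming genes, and the highest of these, 119.23, lay 754 bp upstream of BC019943.

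The 20 highest scores within 1 kb of a start ran from 63.42 to 128.87, and H3K4me3 lay under all 20. Stat3 itself scored 86.52 at chr11:100800542-100801678, 285 bp upstream, with 51 tags at a fold of 7.81, and a SAHA STAT3 region overlapped it. Runx1, a haematopoietic transcription factor, scored 75 at a midpoint 34 bp upstream. Il6 scored 63.42 at chr5:30338775-30340379, 124 bp upstream. Slfn3, an immune-cell Schlafen gene, scored 81.72 at a midpoint 512 bp downstream. Ralgds and Dusp3, regulators of Ras and MAP kinase signalling, scored 77.09 and 63.51. Beside these stood genes of general cell function, such as Rpl22 (a ribosomal protein, 82.25), Dph3 (diphthamide synthesis, 82.04), Mdh1 (malate dehydrogenase, 70.8) and Ube2b (ubiquitin conjugation, 69.82).

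At the level of genes, 892 of 14011 scored protein-coding genes had a STAT3 region reaching within 5 kb of a start (6.37%), and 2310 had a region assigned at any distance (16.5%). Across 32 gene lists with 536 scored genes, 61 had a region within 5 kb (11.4%) and 144 had one assigned (26.9%). Restricted to scores of 40 or more, the counts within 5 kb were 325 genes in all and 24 in the lists. The lists were chosen with immune genes in mind, so they are no sample of all genes. A STAT3 region assigned to a gene is itself enough to make that gene scored, which can raise these shares. A gene far from its neighbours collects more assigned regions: in the quartile group of genes with the largest territory (the span nearer to its starts than to any other gene's) 31.6% had a region, and in the smallest group 6.14%. Regions per Mb of territory ran the other way, at 0.992 and 3.58, against 1.38 over all genes. Both backgrounds apply to the lists below.

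STAT3 pathway genes were taken by role. Of 17 receptors that signal through STAT3, 1 had a region within 5 kb: Il12rb1, a subunit of the IL-12 and IL-23 receptors, with a score of 36.11 at a site 3.9 kb upstream. Il10ra and Il21r had regions further away, 16.2 kb downstream and 9.3 kb upstream. Of 14 ligands, 2 had one: Il6 (above) and Il10, whose region 1337 bp downstream scored 31.66. Stat3 was the one of 11 Janus kinase and STAT genes with a region within 5 kb.

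Among 19 inhibitors of the pathway, Ptpn2, a phosphatase that acts on STAT proteins, was the one within 5 kb, with a score of 34.63. Socs3, the feedback inhibitor, scored 62.63 at a site 8.8 kb downstream of its start, without H3K4me3 and with an overlapping SAHA STAT3 region. Of 31 target genes known from the literature, 4 had a region within 5 kb: Stat3, Nfkbiz, Junb (39.64) and Il1rn, the IL-1 receptor antagonist (32.31). Mcl1, a survival factor, had its highest region, 72.15, at a site 8.1 kb upstream. These 4 make 12.9% of the list.

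Inhibitory and regulatory genes of myeloid cells followed. Regions lay within 5 kb of 4 of 16 inhibitory receptors: Lilrb4 (listed as Lilrb4a), Clec4a2, Fcgr2b and Cd33. Cd33, a sialic acid-binding lectin, scored 55.34 at a site 740 bp upstream without H3K4me3, and Fcgr2b, the inhibitory IgG receptor, scored 49.37 at a site 2.9 kb downstream. Of 22 regulatory dendritic cell molecules, 4 had one: Il10, Il1rn, Lilrb4 and Arg1 (arginase, 39.97).

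Fc receptors and C-type lectins had the largest share of any list, 6 of 18. Beside Clec4a2 and Fcgr2b these were Fcgr1 (31.16), Fcgr3 (31.52), Clec4n (dectin-2, 67.61) and Clec7a (dectin-1, 35.3). The list held 13.1 regions per Mb of territory. Lysosome and endosome genes had 6 of 25 within 5 kb (24%) and 11 assigned. These included Atp6v0a1, a proton pump subunit (39.33), and the GTPases Rab5a (44.44) and Rab7 (33.23).

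NF-kB subunits and their brakes had 4 of 23 within 5 kb: Nfkbiz (above), Nfkbie (39.67), Tnip3 (46.29) and Otulin (32.06), a deubiquitinase. Assigned at any distance were 9, with Tnfaip3 carrying 4 regions and Rel, an NF-kB subunit, 1 at 16.3 kb downstream. Toll-like receptors and adaptors had 1 of 24 within 5 kb, Cd14, and 7 assigned. Tlr4, the LPS receptor, had 3, the highest scoring 80.02 at 24.5 kb downstream.

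Among chemokines and their receptors 5 of 21 had a region within 5 kb: Ccrl2, Ccl3 (37.16), Ccl5 (41.07), Ccl6 (39.68) and Ccl9 (31.51), and all 5 lay over H3K4me3. Of 18 inflammatory cytokines, Il6 was the one within 5 kb. The highest-scoring regions of Il18, Il12b, Il15 and Il1a lay 11.2 to 76.5 kb from their starts, with scores of 66, 38.13, 36.67 and 31.1. Antigen presentation had 4 of 22: B2m (43.8), H2-Ab1 (57.33, the class II beta chain), H2-DMa (34.25) and Psmb8 (30.01, just above the lowest score in the list). Costimulation and maturation genes had 4 of 19: Cd53 (109.9), Cd44 (38.34), Cd83 (32.72) and Slamf7 (31.76). This list is broader than its name, since Cd53 is a leukocyte tetraspanin and Cd44 is counted again with the adhesion genes.

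Myeloid and dendritic transcription factors differed between near and far. Within 5 kb were 4 of 38 (Runx1, Etv3, Irf2 and Pparg), whereas 19 of 38 (50%) had a region assigned at some distance. The list held 4.18 regions per Mb of territory, at 214 kb of territory per gene. Housekeeping genes held 3.33 per Mb, T cell markers 3.26 and non-haematopoietic genes 0.998. Of the 6 housekeeping regions, 3 were assigned to Gapdh on 2 chromosomes, so not all of them can lie at that gene's own locus. Those with distant regions included Irf4 (12.2 kb upstream), Batf3 (9 kb downstream), Id2 (126.7 kb upstream), Klf4 (23.4 kb downstream) and Ikzf1 (30.4 kb downstream), all factors of dendritic or myeloid development. Their scores were 31.48, 40.3, 37.09, 33.12 and 45.43. Among 30 AP-1 and early response genes 3 had a region within 5 kb (Junb, Mafg and Ier3). Apoptosis and survival genes had 4 of 24, of which Cflar, the caspase-8 inhibitor, is unique and the other 3 are the near-identical copies Bcl2a1a, Bcl2a1b and Bcl2a1d, where tags cannot be placed with certainty.

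The remaining lists stood as follows within 5 kb. Macrophage and monocyte markers had 3 of 17 (Cd68, Fcgr1 and Cd14) and dendritic cell markers 1 of 14 (Mgl2). Integrins and adhesion genes had 3 of 20 (Itgb2, Itga5 and Cd44). Actin and migration regulators had 4 of 27 (Lcp1, Dock8, Dock10 and Elmo1), and signalling kinases and adaptors 2 of 29 (Map3k8 and Map3k1). Metabolic enzymes had 2 of 24 (Arg1 and Sod2, the latter with 72.94) and housekeeping genes 1 of 14 (B2m).

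None of 25 genes for histone acetylation and deacetylation had a region within 5 kb, and 3 had one assigned (Hdac4, Hdac9 and Kat7). T cell markers had 1 of 12 (Gata3), and B cell, NK cell, granulocyte, erythroid and non-haematopoietic lists, of 4 to 9 genes each, had none. At any distance these last 5 lists had 16.7% to 28.6% of their scored genes assigned, and these shares rest on 1 to 2 genes each. Housekeeping genes, Gapdh included, had 28.6% assigned and the 32 lists together 26.9%. A STAT3 region assigned to a gene is enough to make it scored, here as in every other list and in the 16.5% of all genes. No list's share at any distance can therefore be set against that 16.5% without this limit. Only 6 of 11 B cell markers and 9 of 20 non-haematopoietic genes were scored.

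**Figure D3:**
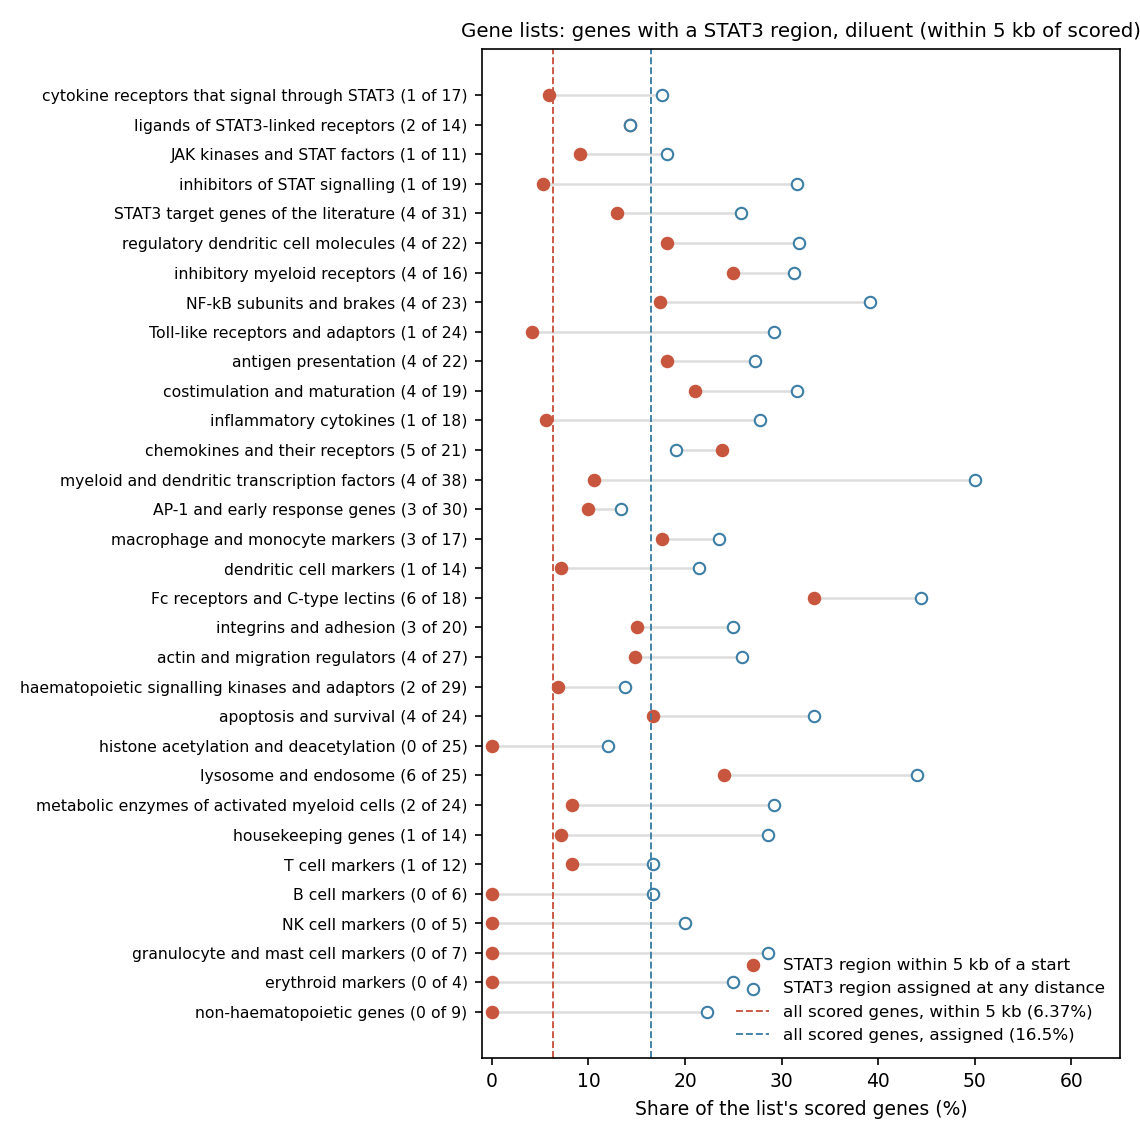
Share of the scored genes of each list (%) with a STAT3 region within 5 kb of a start (filled) and with one assigned at any distance (open), with the counts within 5 kb beside each name. Dashed lines give all scored genes, 6.37% and 16.5%; Fc receptors and C-type lectins (6 of 18) lie farthest right among the filled points.

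Some of these genes are neighbours in family loci, each with a region of its own. On chr11:83347641-83463388 (mm9) 5 regions lay within 116 kb, among them those of Ccl5, Ccl9, Ccl6 and Ccl3, all 5 over H3K4me3. On chr17:34260542-34433688 there were 5 within 173 kb, at H2-DMa, Psmb8, H2-Ob, H2-Ab1 and H2-Aa, 3 of them over H3K4me3. The Fc gamma receptor locus on chr1:172902671-172989885 had 3 within 87.2 kb, at Fcgr2b, Fcgr4 and Fcgr3. These loci were picked after their values were seen.

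Regions were mostly solitary at short range. Within 10 kb of another region were 320 (9.12%, 8.19 to 10.1%), in 156 groups, of which 7 had 3 or more members. With gaps of up to 100 kb, 1454 regions (41.5%) had a neighbour. The largest group, of 4, lay on the X chromosome 52.8 to 83.1 kb downstream of Spin4 and held the longest region of the list, 13781 bp, with a score of 37.07. Cd53, a tetraspanin of leukocytes, had 3 regions inside its gene, 112, 2292 and 4760 bp from the start, with scores of 36.7, 30.79 and 109.9. Cflar had 3 at 560 bp, 9.4 kb and 14.3 kb downstream, with scores of 39.63, 70.7 and 55.6. H3K4me3 lay under all regions of both genes. Foxp1, a forkhead repressor, had a group 25.7 to 36.4 kb upstream with scores of 31.54 to 42.99.

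Of the 2872 symbols that received a region, 2403 had 1 and 14 had 5 or more. Ext1, a heparan sulfate polymerase, and Hlx had 6 each. All 6 Hlx regions lay downstream, 78.2 to 296.3 kb from its start. Btg1, an antiproliferative factor, had 5 regions, all upstream, from 85.1 to 337.8 kb. Cd36, the scavenger receptor, had 5 that bracketed its starts, 3 of them within 5 kb. Prdm1 (Blimp-1), a transcriptional repressor, had 5 from 976 bp downstream to 125.5 kb upstream, with scores of 30.47 to 41.7. Distances are to the start named for each region, and a gene can have several starts. The other genes by rule were Akap13, Stim2, Mir680-3, Mbnl1 and Dach1, with 5 each.

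**Figure D4:**
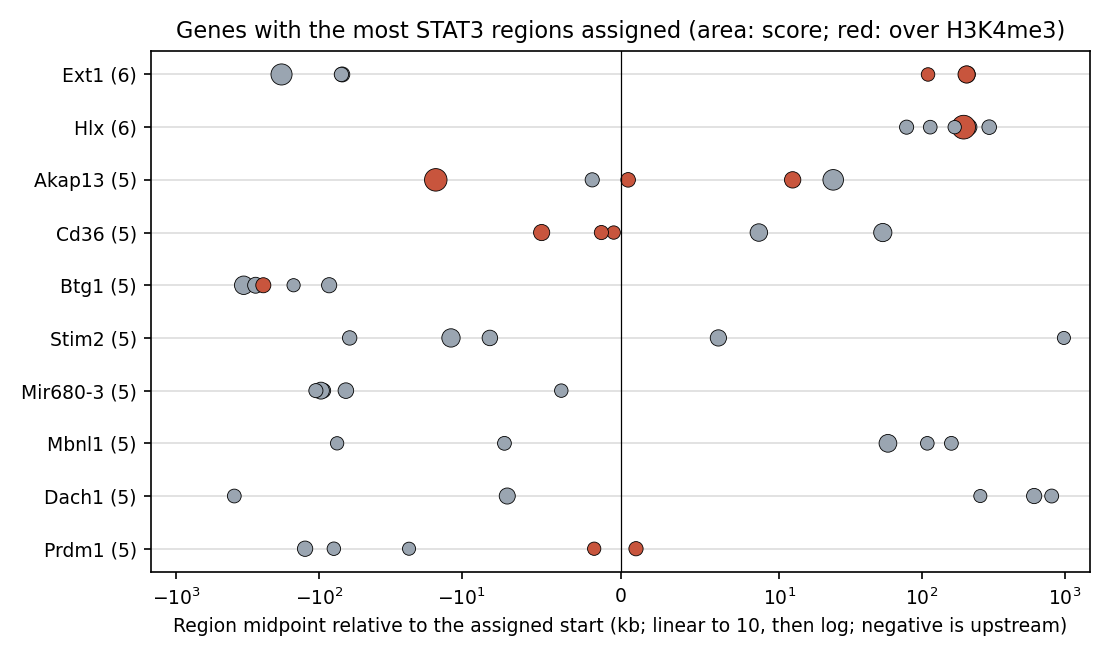
Positions of the STAT3 regions relative to the assigned start (kb, linear to 10 and log beyond, negative upstream) for the 10 genes with the most; the area of a point follows the score and red marks overlap with diluent H3K4me3. The 6 Hlx regions lie downstream only and the 5 Btg1 regions upstream only.

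Seen from the H3K4me3 side, 871 of 22255 diluent H3K4me3 regions met a STAT3 region (3.91%). At starts the share was 0.676% for the narrowest quartile of H3K4me3 regions, 0.617% and 2.71% for the next quartiles and 6.52% (5.77 to 7.33%) for the widest, whose median width was 3226 bp. Per Mb of H3K4me3, the H3K4me3 regions that met STAT3 numbered 9.42, 4.45, 12.5 and 18.4. One that held several STAT3 regions counted once. Away from starts the share was 2.48% in the narrowest quartile and 10.3% in the widest, and such H3K4me3 regions numbered 34.8 and 21.8 per Mb. A meeting needed only 1 bp, so the length of the STAT3 region itself weighs more per Mb where H3K4me3 regions are narrow. In the control-free H3K4me3 table, regions at starts that met STAT3 held a median of 440 tags per kb (quartiles 349 to 518, 396 regions) against 358 (191 to 470, 10641 regions) for the rest.

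Calling the STAT3 library alone, without a control, gave 844 regions. Of these 380 (45.0%, 41.6 to 48.5%) overlapped a region of the IgG library called in the same way, 280 (33.2%) overlapped the list against IgG, 3 overlapped both and 181 (21.4%) neither. The 2 classes differed in strength. Regions shared with IgG had a median of 65 tags and a fold of 12.0, and those in the list had 29 tags and a fold of 5.49, with a highest fold of 10.16. At 383 pairs of overlapping STAT3 and IgG regions the depth-scaled ratio of STAT3 to IgG tags had a median of 0.802 (quartiles 0.699 to 0.931). At the upper quartile the ratio was still below 1, so in most pairs the IgG region held more scaled tags than the STAT3 region. Each count was taken over its own called region without correction for length, and only sites called in both libraries formed pairs. The ratio therefore does not compare the 2 libraries over the same bases.

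The list against IgG was called with this IgG library as control, so few such sites could enter it. Of its 3507 regions 3 overlapped an IgG region (0.0855%, 0.0176 to 0.250%), assigned to Myom2, Olfr161 and Robo1, all over 345 kb from their starts. Control-free STAT3 regions lay under 283 of the list's regions (8.07%), whose median score was 47.95, against 34.55 for the other 3224. The share was 1.71% in the lowest score quartile and 23.8% (21.0 to 26.8%) in the highest. By fold, Cd300c, a myeloid immunoglobulin-like receptor, led with 10.16 (42 tags, 13 kb upstream), followed by Rpl22 with 10, Lamc1 with 8.76, Ext1 with 8.28 and Ttc32 with 8.28. The other regions named by this fold had 7.81 to 8.22 and belonged to Ppfibp2, Relt, Ets2, Hspa4l and Stat3. Ttc32 and Relt stood low in the list against IgG, at 30.16 and 31.61.

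STAT3 regions of the SAHA cells, 8552 against the same IgG library, overlapped 234 of these regions (6.67%). With a gap of up to 1 kb allowed, the overlapping ones included, the count was 302 (8.61%). Regions that lay close without touching included the highest, at Lilrb4, with a gap of 135 bp, and Serpinb8, with 104 bp. With 1 library a condition, whether such a close site bound in both cannot be separated from where each region's edges were called. The remaining regions had no SAHA STAT3 region within 1 kb, and faint sites there cannot be told from missing ones.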

How the data were processed

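Libraries were from 1 sample each of 5 groups, and all comparisons are of regions and not of replicates. Per the submitters' processing notes, BWA was the aligner and mm9 the genome build. The lists against IgG hold a score for each region from MACS, as the deposited region names show, and how the score and its limit of 30 were set could not be read from the deposited files. Region numbers run to 3972, with 465 missing. The single-library tables were called with MACS without control at a p-value limit of 1e-05 and at most 2 duplicate tags per position, per the file headers. They hold tag counts per region and fold enrichment, a ratio to local background, both as deposited by the authors.

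From these, overlaps (at least 1 bp), distances of midpoints to the assigned start, groups and exact 95% intervals were computed with Python 3.11.15, pandas 2.3.3 and scipy 1.17.1, and checked on simulated regions. Symbols were matched to RefSeq (14931 of 17024). A gene counted as near a region when a listed start lay within 5 kb of its edge. Named genes were the 20 highest scores, the 20 highest within 1 kb of a start, the 10 largest groups, the 10 genes with most regions, the 10 highest control-free folds outside IgG regions, and list members with a region. The regions, gene lists and rules were chosen with earlier results of these data known. Alternative windows, gaps, overlaps and a score of 40 or more were tried. The read-quality reports were not used, and some named genes are not reported here.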

Additional observations from a re-analysis of the deposited data

How the results depend on the processing

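No paired analysis was possible because each group has 1 library; for the same reason no replicate could be left out. Counting error does not cover differences between cultures, and tags at single sites were few, so faint sites cannot be told from missing ones. Of 32 alternatives to 11 results, 11 stayed within the main value's interval (counts within 1.5 times) and 21 did not; the windows of 2 and 10 kb and the score limit for the gene lists, and the nearest listed start, were chosen after seeing the data. Restricting to the 976 regions with a score of 40 or more gave 16.6% within 1 kb of a start in place of 11.9%, 58.8% beyond 10 kb, 38.0% over H3K4me3, 12.3% over SAHA STAT3 regions, 22.3% over control-free STAT3 regions, 49 regions with a neighbour, 325 genes and 24 listed genes within 5 kb, and 5.42% of promoters with TTCNNNGAA. Requiring an overlap over 50% of the region gave 22.9% for H3K4me3 and 4.79% for SAHA STAT3, for which a gap of up to 1 kb gave 8.61% in place of 6.67%, and control-free H3K4me3 regions gave 23.5%. The share at starts was 16.7% with a 2 kb window and 14.1% from the nearest edge. With the whole region inside the transcript the share was 31.0%, and 29.2% of regions lay beyond 50 kb. Gaps of 5 and 25 kb gave 200 and 604 regions with a neighbour, any distance gave 2310 genes, and TTCCNGGAA was in 1.65% of promoters.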

Other observations

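STAT3 regions were spread unevenly over the chromosomes. The X chromosome had the lowest density, 0.679 regions per Mb (113 regions), and chromosomes 13 and 19 the highest, 1.78 and 1.75 per Mb, against 1.33 over all. H3K4me3 regions of the diluent cells were also sparsest on X, at 3.91 per Mb, and densest on chromosome 11, at 14.0 per Mb. The share of STAT3 regions over H3K4me3 was 41.7% on chromosome 11 and 10.6% on X. Chromosomes 13 and 11 had similar STAT3 densities, 1.78 and 1.67 per Mb, at shares over H3K4me3 of 20.1% and 41.7%. Both lists were called against the same IgG library.

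Among the STAT3 regions at starts, 40 of 418 did not overlap H3K4me3. Their scores ran from 30.05 to 55.34 with a median of 35.6, against 38.0 for the 378 that did. Cd33 had the highest of them. The 3 Gapdh assignments lay on 2 chromosomes and include 1 on chromosome 11, 331.8 kb from the start given. A symbol there need not mean the gene's own locus, and these 3 count in the housekeeping density above.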
